A study of Thermothelomyces thermophilus with 18 samples.

Results

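Mycth_107763, Mycth_2118002 and Mycth_2059428 are genes of Myceliophthora thermophila, a thermophilic fungus that degrades cellulose, and the study describes them as major facilitator superfamily (MFS) genes. These 3 genes of the 9109 in the expression table were chosen by their measured deletion effects in these libraries, the differences between the strains with and without the transcription factor gene Mttrc-1, which were large and differed between conditions. Their levels are therefore given as a description, with no test, and tests are given only for other genes. The RNA came from the strains ΔMttrc-1, in which Mttrc-1 had been deleted with CRISPR-Cas9 and which carries the selection marker of that deletion, and MtWT, its wild-type parent. Both strains first spent 16 h at 45 °C in medium with 2% glucose, and the mycelium was then washed. The new medium held 2% of either Avicel (cellulose in microcrystalline form), on which it stayed for 4 h or 6 h, or soluble starch, on which it stayed for 4 h. This gave 6 groups of 3 biological replicates, namely ΔMttrc-1 and MtWT at 4 h on Avicel, at 6 h on Avicel and at 4 h on starch. How many independent deletion clones the ΔMttrc-1 libraries stand for is not given in the sources used here, and no glucose sample was analysed here.

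MFS proteins are membrane carriers that move small molecules across a membrane by using a concentration or ion gradient rather than ATP. In fungi the family holds importers of sugars, including the cellodextrin carriers known from Neurospora crassa that bring in the breakdown products of cellulose, and also carriers of other nutrients and exporters of toxic compounds. Carbon source commonly sets the transcript level of fungal sugar carriers. The descriptions of Mycth_107763 (MFS general substrate transporter), Mycth_2118002 and Mycth_2059428 (major facilitator superfamily) name no substrate, and none is assumed for them.

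Total counts were between 17250057 and 24387079 per library, of which 5.69% to 10.2% fell on the 10 most abundant genes. Levels are CPM (counts relative to the size of the library) after scaling with TMM, a method that lines up the bulk of the genes between libraries. Mttrc-1 itself is not analysed here, and the strain labels were not tested by it. Actin (Mycth_2314852) and tef-1 (Mycth_2298136), 2 genes commonly used as references, had log2 differences between the strains of -0.24 to -0.12 at 4 h on Avicel, -0.16 to 0.13 at 6 h on Avicel and -0.28 to -0.24 on starch. All 3 transporter genes passed the filter on low counts, which kept 8573 genes.

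Mycth_107763 was almost silent in ΔMttrc-1 on Avicel and was at its highest level in the same strain on starch. At 4 h on Avicel its 3 libraries held 10, 1 and 0 counts in ΔMttrc-1, against 792, 706 and 741 counts in MtWT. The 6 h Avicel libraries held 1, 0 and 0 counts in ΔMttrc-1, against 806, 789 and 801 in MtWT. On starch the order of the strains was turned round, with 2103, 1846 and 1863 counts in ΔMttrc-1 and 169, 121 and 185 in MtWT. The strains did not overlap in any of the 3 conditions.

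**Figure D1:**
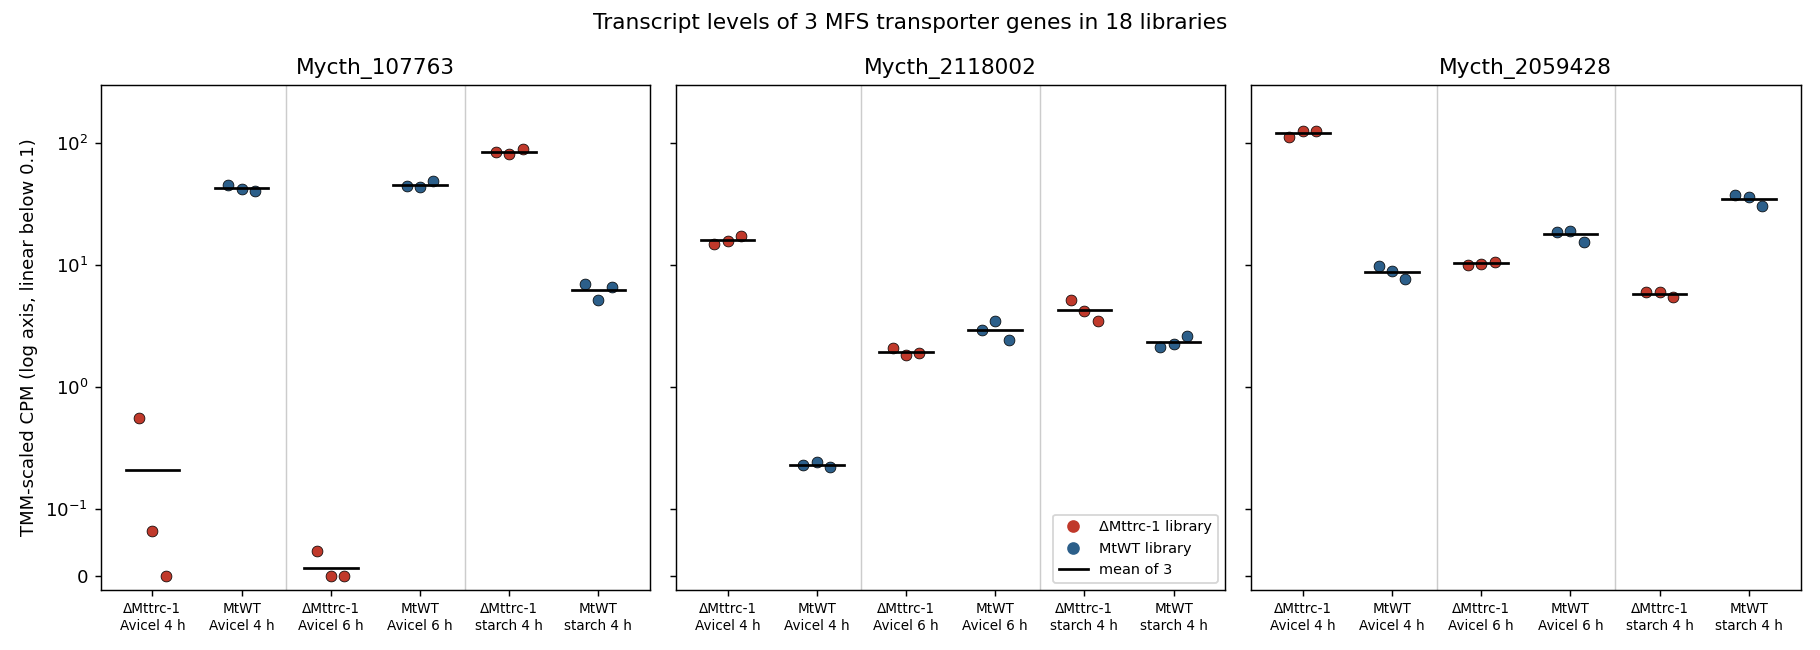
TMM-scaled CPM (log axis, linear below 0.1) of the 3 transporter genes in each of the 18 libraries, with points for libraries and a bar for the mean of 3. Mycth_107763 lay at 0 to 0.551 CPM in the 6 ΔMttrc-1 Avicel libraries and at 81.6 to 89.0 CPM in the ΔMttrc-1 starch libraries, whereas Mycth_2118002 and Mycth_2059428 were highest in ΔMttrc-1 at 4 h on Avicel.

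As scaled levels, Mycth_107763 averaged 0.206 ± 0.301 CPM in ΔMttrc-1 and 42.7 ± 2.13 CPM in MtWT at 4 h on Avicel (SD, n = 3 each). The depth-adjusted ratio of the summed counts was 187-fold lower in ΔMttrc-1, with a 95% counting interval of 104 to 375. The fitted log2 difference was -7.51 ± 0.24 (SE). This SE, derived from the test statistic, is narrower than the counting interval and understates the uncertainty at so few counts. Of the 11 counts in ΔMttrc-1, 10 stood in replicate 1, and without that library the fitted difference was -10.09. Its level at 6 h on Avicel was 0.0125 ± 0.0216 CPM in ΔMttrc-1 and 45.4 ± 2.74 CPM in MtWT. Here 1 count stood against 2396, a ratio of 3647-fold lower with a counting interval of 654 to 144000. The fitted difference of -11.27 depends on the small count that the fit adds to every library, and it was -8.72 with a larger added count of 2. On starch the level was 85.0 ± 3.76 CPM in ΔMttrc-1 and 6.22 ± 0.926 CPM in MtWT, which is 13.6-fold higher in ΔMttrc-1 (counting interval 12.4 to 14.9) and a log2 difference of 3.77 ± 0.13. Counting intervals cover counting error only.

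The response of Mycth_107763 to the carbon source also ran in opposite directions in the 2 strains. In ΔMttrc-1 the gene was lower at 4 h on Avicel than on starch, with a log2 difference of -8.51 ± 0.23, and of -11.08 without replicate 1 of ΔMttrc-1 at 4 h, which holds 10 of the 11 counts on Avicel. In MtWT it was higher on Avicel than on starch, by 2.77 ± 0.13 on the log2 scale. Counted reads of the gene on starch exceeded those on Avicel in ΔMttrc-1 by a factor of 372 at 4 h (208 to 745, resting on those 11 counts) and of 6840 at 6 h (1230 to 270000). Between 6 h and 4 h on Avicel the counts in ΔMttrc-1 were too few for an order, since the libraries of both times overlapped near 0. In MtWT the log2 difference of 6 h from 4 h was 0.09 ± 0.11, with libraries that overlapped in TMM-scaled CPM. That value was 0.35 when libraries were scaled by their total counts instead, a scaling that moved the median of all genes in the same comparison to 0.28.

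Mycth_2118002 showed the opposite deletion effect at 4 h on Avicel and almost none of it later. At 4 h on Avicel it had 270, 238 and 258 counts in ΔMttrc-1, against 4 counts in each of the 3 MtWT libraries. That corresponds to 16.0 ± 1.2 CPM in ΔMttrc-1 and 0.229 ± 0.0101 CPM in MtWT (SD, n = 3 each), a 69.5-fold higher level in ΔMttrc-1 with a counting interval of 39.6 to 135. The fitted log2 difference was 6.09 ± 0.26, and 5.63 with an added count of 2. Its SE, and those of other comparisons with MtWT at 4 h on Avicel, understate the uncertainty, since that group held 12 counts. By 6 h on Avicel the gene had 55, 52 and 48 counts in ΔMttrc-1, against 53, 63 and 40 in MtWT. After scaling these became 1.84 to 2.06 CPM in ΔMttrc-1 and 2.42 to 3.45 CPM in MtWT, ranges that did not overlap, with a log2 difference of -0.61 ± 0.20. On starch it had 129, 94 and 73 counts in ΔMttrc-1 and 52, 52 and 73 in MtWT, or 4.27 ± 0.847 CPM in ΔMttrc-1 and 2.31 ± 0.240 CPM in MtWT, a log2 difference of 0.88 ± 0.18.

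The 2 strains followed opposite courses on Avicel. In ΔMttrc-1 the log2 difference of 6 h from 4 h was -3.05 ± 0.17 for Mycth_2118002, while in MtWT the gene was 3.65 ± 0.32 higher at 6 h than at 4 h. At 4 h it was higher on Avicel than on starch in ΔMttrc-1, by 1.89 ± 0.16, and lower on Avicel than on starch in MtWT, with a log2 difference of -3.31 ± 0.32. The library group that stands out from the rest as lowest is thus MtWT at 4 h on Avicel, where the gene lay 8.38-fold below the next group.

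Mycth_2059428 lay far above MtWT in ΔMttrc-1 after 4 h on Avicel and below MtWT on starch, so its deletion effect changed direction between carbon sources. At 4 h on Avicel it had 112, 126 and 125 CPM in the ΔMttrc-1 libraries, against 9.70, 8.99 and 7.64 CPM in the MtWT libraries. The means were 121 ± 8.09 CPM in ΔMttrc-1 and 8.78 ± 1.05 CPM in MtWT (SD, n = 3 each), a 13.7-fold higher level in ΔMttrc-1 (counting interval 12.5 to 15.2) and a log2 difference of 3.79 ± 0.10. At 6 h on Avicel it had 10, 10.2 and 10.6 CPM in ΔMttrc-1 and 18.7, 19.0 and 15.5 CPM in MtWT, so that all ΔMttrc-1 libraries lay below all MtWT libraries, with a log2 difference of -0.79 ± 0.10. On starch it had 5.97, 6.01 and 5.45 CPM in ΔMttrc-1, against 37.8, 36.0 and 30.5 CPM in MtWT, a log2 difference of -2.58 ± 0.11, or 5.93-fold lower in ΔMttrc-1 (5.33 to 6.60).

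In ΔMttrc-1, Mycth_2059428 was higher on Avicel than on starch at 4 h, by 4.38 ± 0.10 on the log2 scale. In MtWT it was lower on Avicel than on starch at 4 h, with a log2 difference of -1.98 ± 0.10. Its course over time on Avicel also differed in sign, with a difference of 6 h from 4 h of -3.56 ± 0.10 in ΔMttrc-1 and of 1.02 ± 0.11 in MtWT. For the deletion effects of Mycth_2118002 and Mycth_2059428 at 6 h the scaling mattered. With library totals in place of TMM the median of all genes at 6 h was 0.36 instead of 0.01, and these 2 genes had log2 differences of -0.25 and -0.43.

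Ordered from the highest to the lowest group mean, Mycth_107763 had 85.0 CPM in ΔMttrc-1 on starch, 45.4 CPM in MtWT at 6 h on Avicel, 42.7 CPM in MtWT at 4 h on Avicel, 6.22 CPM in MtWT on starch, and 0.206 and 0.0125 CPM in ΔMttrc-1 at 4 h and 6 h on Avicel. The 2 MtWT Avicel groups overlapped, as did the 2 ΔMttrc-1 Avicel groups, and the other neighbors in this order did not. For Mycth_2118002 the order was ΔMttrc-1 at 4 h on Avicel, ΔMttrc-1 on starch, MtWT at 6 h on Avicel, MtWT on starch, ΔMttrc-1 at 6 h on Avicel and MtWT at 4 h on Avicel. Of these neighbors, MtWT at 6 h on Avicel and MtWT on starch overlapped, at 2.93 ± 0.516 and 2.31 ± 0.240 CPM. The order for Mycth_2059428 was ΔMttrc-1 at 4 h on Avicel, MtWT on starch, MtWT at 6 h on Avicel, ΔMttrc-1 at 6 h on Avicel, MtWT at 4 h on Avicel and ΔMttrc-1 on starch. No 2 neighbors overlapped in it, and the closest were ΔMttrc-1 at 6 h and MtWT at 4 h on Avicel, at 10.3 ± 0.308 and 8.78 ± 1.05 CPM. The overlaps depend on the scaling and differ on deposited RPKM, reads relative to gene length and library size without TMM. There Mycth_2059428 overlapped between MtWT at 4 h on Avicel (3.22 to 4.20) and ΔMttrc-1 on starch (3.39 to 3.75). Mycth_2118002 overlapped there between MtWT on starch and ΔMttrc-1 at 6 h on Avicel as well. The 2 MtWT Avicel groups of Mycth_107763 did not overlap there, at 26.2 to 29.7 RPKM at 4 h and 33.9 to 38.5 RPKM at 6 h.

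Levels of different genes were compared per gene length, as RPKM, reads relative to the length of the gene and the size of the library. Descriptions were at hand for 1666 genes, and 33 of these were MFS genes, of which 29 passed the filter on low counts. By mean RPKM, Mycth_107763 was in ΔMttrc-1 the least abundant of the 29 at both Avicel times, with 0.140 RPKM at 4 h and 0.0127 RPKM at 6 h, where their medians were 3.69 and 6.77 RPKM. It was the most abundant of them in ΔMttrc-1 on starch (80.8 RPKM) and in MtWT at 4 h and 6 h on Avicel (28.1 and 35.9 RPKM). Mycth_2059428 was the most abundant MFS gene in ΔMttrc-1 at 4 h on Avicel, with 53.1 RPKM, and ranked 13 of 29 in MtWT there, with 3.79 RPKM. The same gene ranked 20 in ΔMttrc-1 and 5 in MtWT on starch, with 3.62 and 21.8 RPKM. Mycth_2118002 ranked 8 in ΔMttrc-1 and 27 in MtWT at 4 h on Avicel, with 7.61 and 0.107 RPKM, and 22 or 23 in the other 4 groups. These ranks hold among the genes whose description says MFS. Some genes described as sugar transporters were more abundant, such as Mycth_114107 at 4 h on Avicel, with 325 RPKM in ΔMttrc-1 and 895 RPKM in MtWT.

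Across the 6 groups the mean log2 level spanned 9.64 for Mycth_107763, 5.63 for Mycth_2118002 and 4.36 for Mycth_2059428. For the other 26 MFS genes tested the span had a median of 1.38 and a maximum of 3.70, and for all genes the median was 1.10. These spans describe the choice of the 3 genes.

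**Figure D2:**
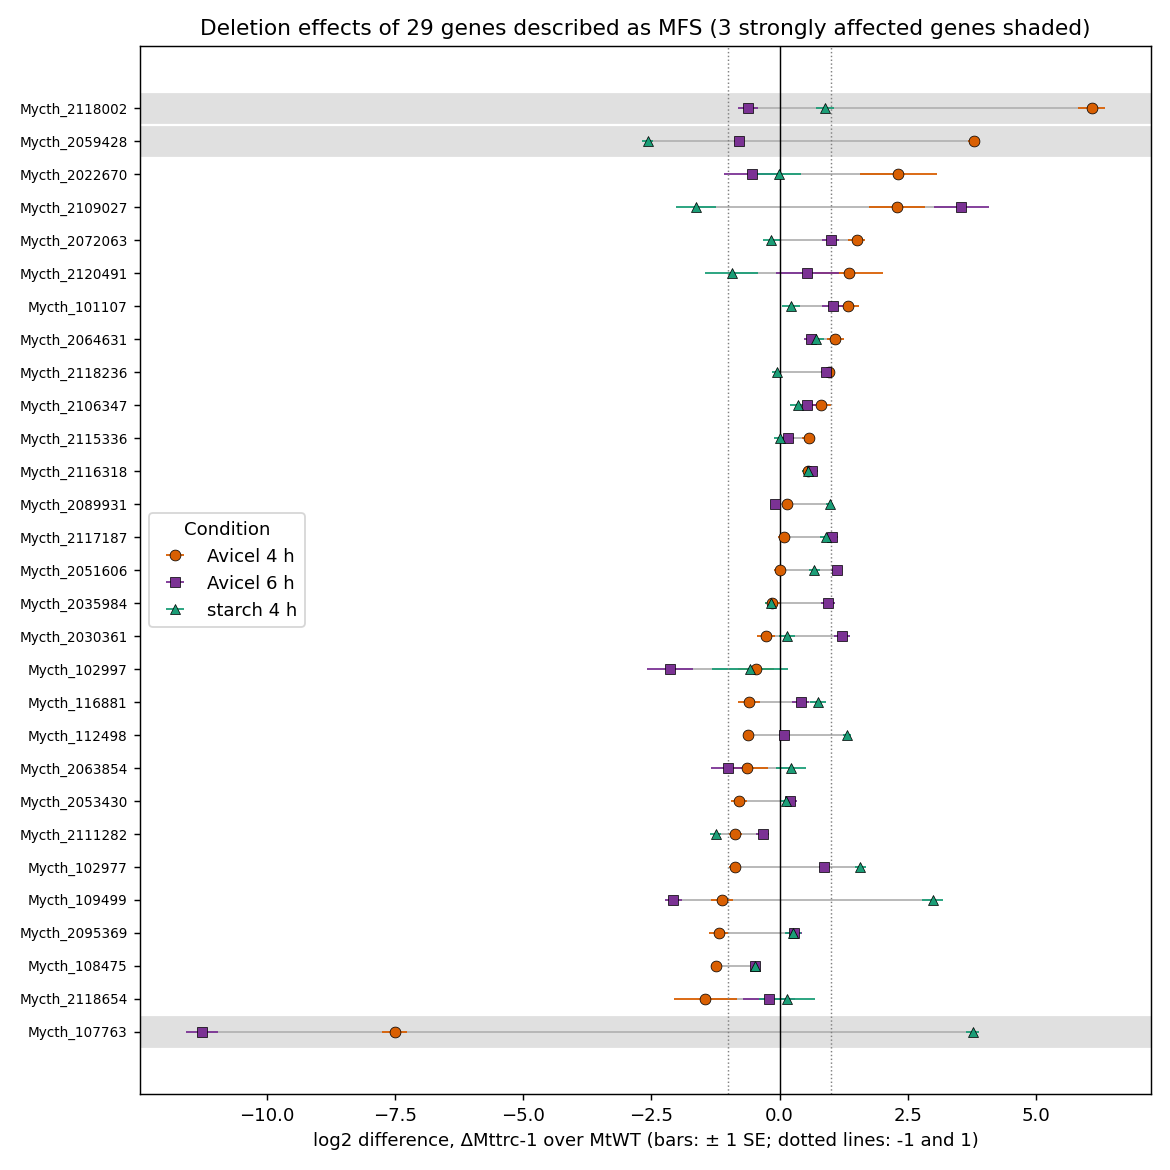
log2 difference of ΔMttrc-1 over MtWT for the 29 MFS genes tested, with 1 symbol for each condition, bars of ± 1 SE, dotted lines at -1 and 1, and the 3 transporter genes shaded. The other 26 genes lay between -1.45 and 2.32 at 4 h on Avicel, between -2.14 and 3.55 at 6 h on Avicel and between -1.64 and 2.99 on starch.

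The other MFS genes changed in both directions. A gene was called changed in edgeR's quasi-likelihood test at a Benjamini-Hochberg adjusted p under 0.05 and an absolute log2 difference over 1. At 4 h on Avicel, 4 of the 26 were lower and 5 higher in ΔMttrc-1, or 34.6%, beside 13.3% of all genes tested (7.42% lower, 5.83% higher) and 17.5% of the genes with a description at hand. At 6 h on Avicel, 3 were lower and 5 higher, or 30.8%, beside 21.5% of all genes (12.9% lower, 8.55% higher) and 24.9% of the described genes. On starch, 2 were lower and 3 higher, or 19.2%, beside 7.98% of all genes (3.86% lower, 4.12% higher) and 11.2% of the described genes. The median log2 differences of the 26 were -0.07 at 4 h on Avicel, 0.47 at 6 h on Avicel and 0.18 on starch, beside -0.02, 0.01 and -0.01 over all genes. With library totals the split at 6 h became 2 lower and 9 higher, and without replicate 2 of MtWT at 6 h on Avicel the number of higher genes was 3. Of the 26, 9 passed in no condition.

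Mycth_109499, described like Mycth_107763 as an MFS general substrate transporter, was lower in ΔMttrc-1 at 6 h on Avicel and higher on starch, with a weaker call of lower at 4 h on Avicel. It had 1.76 ± 0.2 CPM in ΔMttrc-1 and 3.80 ± 0.722 CPM in MtWT at 4 h on Avicel, and 3.34 ± 0.395 and 14.1 ± 1.52 CPM in ΔMttrc-1 and MtWT at 6 h. On starch it had 8.01 ± 0.111 CPM in ΔMttrc-1 and 1.02 ± 0.328 CPM in MtWT (SD, n = 3 each). Its log2 differences were -1.12 ± 0.22, -2.07 ± 0.16 and 2.99 ± 0.20, with edgeR adjusted p of 8.35e-05, 1.43e-11 and 1.77e-12. The call at 4 h was lost in limma on log2(RPKM + 1) at -0.53, without replicate 3 of MtWT at 4 h on Avicel at -0.98, and against a 2-fold threshold in the test itself. This sequence of calls was found for 1.04% of all genes tested, and its deletion effect on Avicel at 4 h differed from that on starch by -4.11 ± 0.30 (edgeR adjusted p = 6.85e-12), a comparison in which 19.3% of all genes were called. No other MFS gene of the 26 had it.

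Among the other MFS genes of at least 10 CPM, the most decreased at 4 h on Avicel was Mycth_108475, with 31.8 ± 4.02 CPM in ΔMttrc-1 and 74.8 ± 9.60 CPM in MtWT, a log2 difference of -1.24 ± 0.09 (edgeR adjusted p = 3.69e-12). None of at least 10 CPM was called higher there. At 6 h on Avicel, Mycth_2030361 and Mycth_2051606 were higher, by 1.22 ± 0.16 and 1.11 ± 0.11 (edgeR adjusted p = 1.84e-07 and 1.14e-09). On starch, Mycth_102977 and Mycth_112498 were higher, by 1.57 ± 0.10 and 1.32 ± 0.08 (edgeR adjusted p = 1.61e-12 and 3.68e-13), and Mycth_2111282 was lower, with a log2 difference of -1.25 ± 0.10 (edgeR adjusted p = 1.22e-10). Against a 2-fold threshold in the test itself, the calls of Mycth_2030361, Mycth_2051606 and Mycth_2111282 were lost.

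Genes described as sugar transporters, many of which belong to the MFS fold in fungi, had calls in both directions on Avicel. Of the 14, 3 were lower and 1 higher at 4 h on Avicel, 5 lower and 1 higher at 6 h, and 0 lower and 1 higher on starch. These were 28.6%, 42.9% and 7.14% of the list, beside 13.3%, 21.5% and 7.98% of all genes, so the share on starch was that of all genes. The median log2 differences were -0.43, -0.07 and 0.05. With library totals the counts at 6 h were 2 lower and 3 higher, so the balance at that time followed the scaling. Mycth_114107 had 782 ± 36.9 CPM in ΔMttrc-1 and 2190 ± 215 CPM in MtWT at 4 h on Avicel, a log2 difference of -1.49 ± 0.06 (edgeR adjusted p = 4.29e-17), and only 8.57 ± 0.663 and 11.3 ± 1.23 CPM in ΔMttrc-1 and MtWT on starch.

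The sugar transporter gene Mycth_108924 was called higher at 4 h on Avicel and had no call elsewhere. At 4 h on Avicel it had 293, 289 and 312 CPM in ΔMttrc-1, against 25.0, 28.5 and 23.4 CPM in MtWT, a log2 difference of 3.54 ± 0.07 (edgeR adjusted p = 2.31e-24). At 6 h on Avicel it averaged 49.9 ± 0.712 CPM in ΔMttrc-1 and 54.3 ± 4.15 CPM in MtWT, and on starch 134 ± 0.219 and 167 ± 6.65 CPM in ΔMttrc-1 and MtWT (SD, n = 3 each), with log2 differences of -0.12 and -0.32 that did not pass. The sugar transporter gene Mycth_108044 was lower at both Avicel times and higher on starch. It had 0.713 ± 0.139 CPM in ΔMttrc-1 and 5.57 ± 1.93 CPM in MtWT at 4 h on Avicel, and 21.7 ± 1.36 and 9.28 ± 0.598 CPM in ΔMttrc-1 and MtWT on starch. Its log2 differences were -2.98 ± 0.27 at 4 h on Avicel, -1.81 ± 0.20 at 6 h on Avicel and 1.23 ± 0.15 on starch, with edgeR adjusted p of 5.02e-10, 1.11e-08 and 1.11e-07, and the call on starch was lost against a 2-fold threshold. Unlike Mycth_107763, whose MtWT level was 2.77 higher on Avicel than on starch at 4 h, it had a difference of -0.73 in that comparison and was not called, where 19.7% of all genes were.

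Another sugar transporter gene, Mycth_104673, was lower in ΔMttrc-1 at both Avicel times. It had 2.43 ± 0.284 CPM in ΔMttrc-1 and 17.1 ± 2.55 CPM in MtWT at 4 h, and 2.19 ± 0.315 and 11.4 ± 1.60 CPM in ΔMttrc-1 and MtWT at 6 h, with log2 differences of -2.82 ± 0.19 and -2.38 ± 0.18 (edgeR adjusted p = 8.59e-13 and 6.66e-12). Mycth_2076976 was lower at 6 h on Avicel, at 54.3 ± 0.272 CPM in ΔMttrc-1 and 118 ± 8.29 CPM in MtWT, a log2 difference of -1.12 ± 0.07 (edgeR adjusted p = 7.08e-14) that was -0.76 and lost its call with library totals. Of 23 tested genes for other carriers and pumps, such as amino acid permeases, ABC transporters and ion pumps, 2 were lower and 3 higher at 4 h on Avicel, 2 lower and 3 higher at 6 h, and 1 lower and 0 higher on starch. The shares called were 21.7%, 21.7% and 4.35%, beside 13.3%, 21.5% and 7.98% of all genes.

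Mycth_107763 and Mycth_2118002 lie near each other in the genome. In the gene order of the RefSeq assembly ASM22609v1, only Mycth_2062976 stands between them. The 10 genes before Mycth_107763 form an unbroken run that was lower in ΔMttrc-1 at 4 h on Avicel. All 10 of them, which were all that were looked at on that side, were called lower, where 7.42% of all genes were, with log2 differences from -8.45 to -1.10 and a median of -5.01. At 6 h on Avicel 7 of the 10 were lower, where 12.9% of all genes were, and on starch 6 were lower, where 3.86% of all genes were, and none was higher in either. In limma on log2(RPKM + 1) the counts of lower genes were 4 at 6 h and 0 on starch on that scale, which draws low levels together. Mycth_107763 shared the direction of this run on Avicel, and on starch it was higher.

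**Figure D3:**
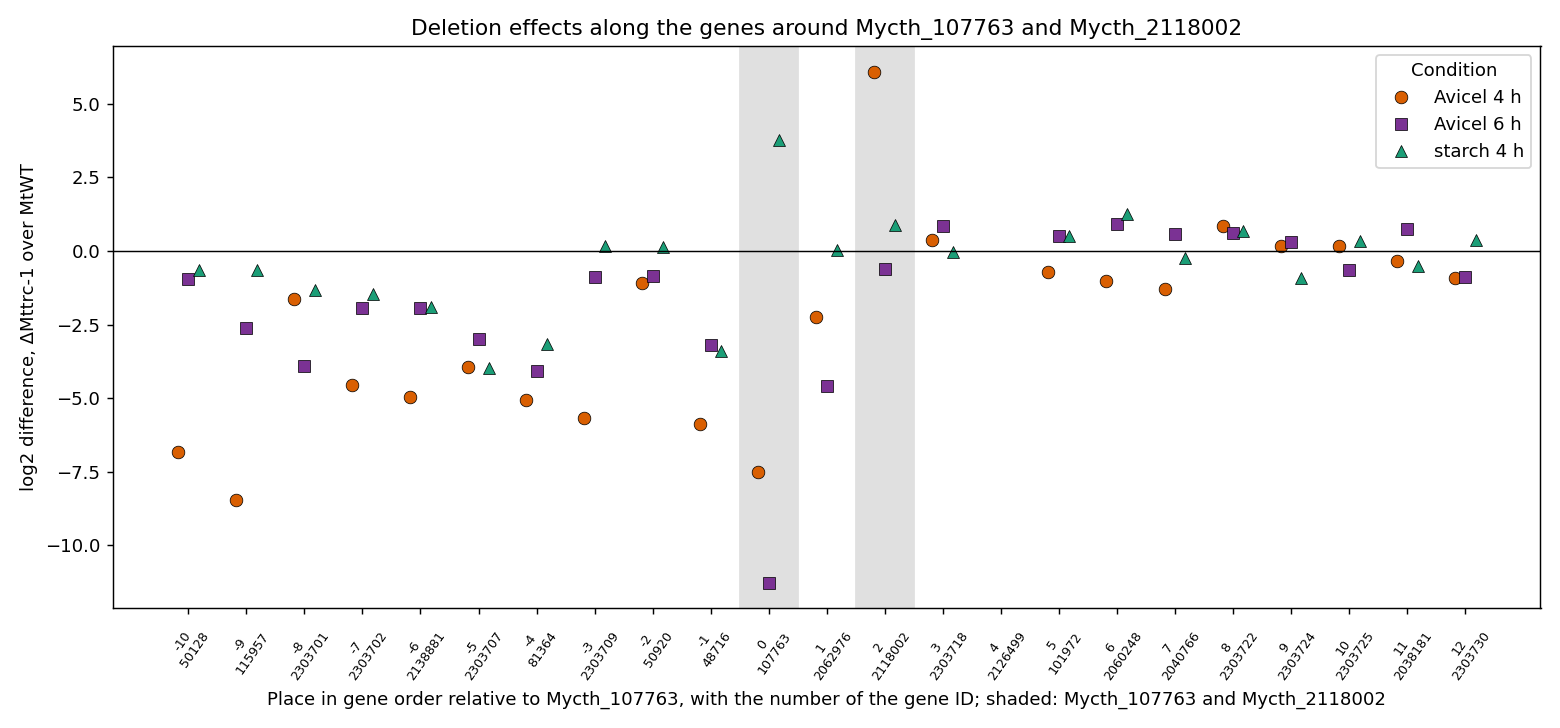
log2 difference of ΔMttrc-1 over MtWT for the genes from 10 places before Mycth_107763 to 12 places after it, in gene order, with 1 symbol for each condition. The gene at place 4 did not pass the filter on low counts. All 10 genes on the left lay below 0 at 4 h on Avicel, Mycth_107763 at place 0 reached -11.27 at 6 h and 3.77 on starch, and Mycth_2118002 at place 2 reached 6.09 at 4 h on Avicel.

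The levels of the run and of the 2 transporter genes differed in their course. The summed level of the 10 genes was 543 CPM in ΔMttrc-1 and 11300 CPM in MtWT at 4 h on Avicel, 69.6 and 146 CPM in ΔMttrc-1 and MtWT at 6 h, and 73.8 and 72.0 CPM in ΔMttrc-1 and MtWT on starch. Mycth_50920 held most of the later sums, with 64.2 and 116 CPM in ΔMttrc-1 and MtWT at 6 h and 71.5 and 65.5 CPM on starch. The median over the 10 genes was 35.2 and 932 CPM in ΔMttrc-1 and MtWT at 4 h on Avicel, 0.593 and 2.29 CPM at 6 h, and 0.295 and 0.826 CPM on starch. Between 6 h and 4 h in MtWT, all 10 genes of the run were called lower, where 5.67% of all genes were, with a median log2 difference of -8.75. Mycth_107763 had 0.09 in the same comparison. On starch 9 of the 10 genes averaged under 1 CPM in ΔMttrc-1 and 6 of the 10 in MtWT, whereas Mycth_107763 averaged 85.0 and 6.22 CPM there. Mycth_50920 was not called on starch.

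In MtWT at 4 h on Avicel the level per gene length in the run ranged from 137 RPKM in Mycth_2303701 to 2130 RPKM in Mycth_115957, which is described as a 2OG-Fe(II) oxygenase. Mycth_115957 had 8.27 ± 1.03 CPM in ΔMttrc-1 and 2880 ± 98.3 CPM in MtWT at that time, a log2 difference of -8.45 (edgeR adjusted p = 3.17e-27). The gene directly before Mycth_107763, Mycth_48716, had 35.5 ± 2.63 CPM in ΔMttrc-1 and 2070 ± 366 CPM in MtWT there (log2 difference -5.87, edgeR adjusted p = 2.26e-14) and averaged 0.0548 and 0.653 CPM in ΔMttrc-1 and MtWT on starch (-3.39, edgeR adjusted p = 0.00764). The other genes of the run were Mycth_50128, Mycth_2303702, Mycth_2138881, Mycth_2303707, Mycth_81364 and Mycth_2303709, between 325 and 1090 RPKM in MtWT at 4 h on Avicel. Over the 18 libraries the Pearson correlation of log2 CPM with genes of the run was 0.03 to 0.16 for Mycth_107763 and -0.55 to -0.22 for Mycth_2118002, and between the 2 transporter genes it was -0.41. The libraries fall into 6 groups, so these values describe group profiles.

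**Figure D4:**
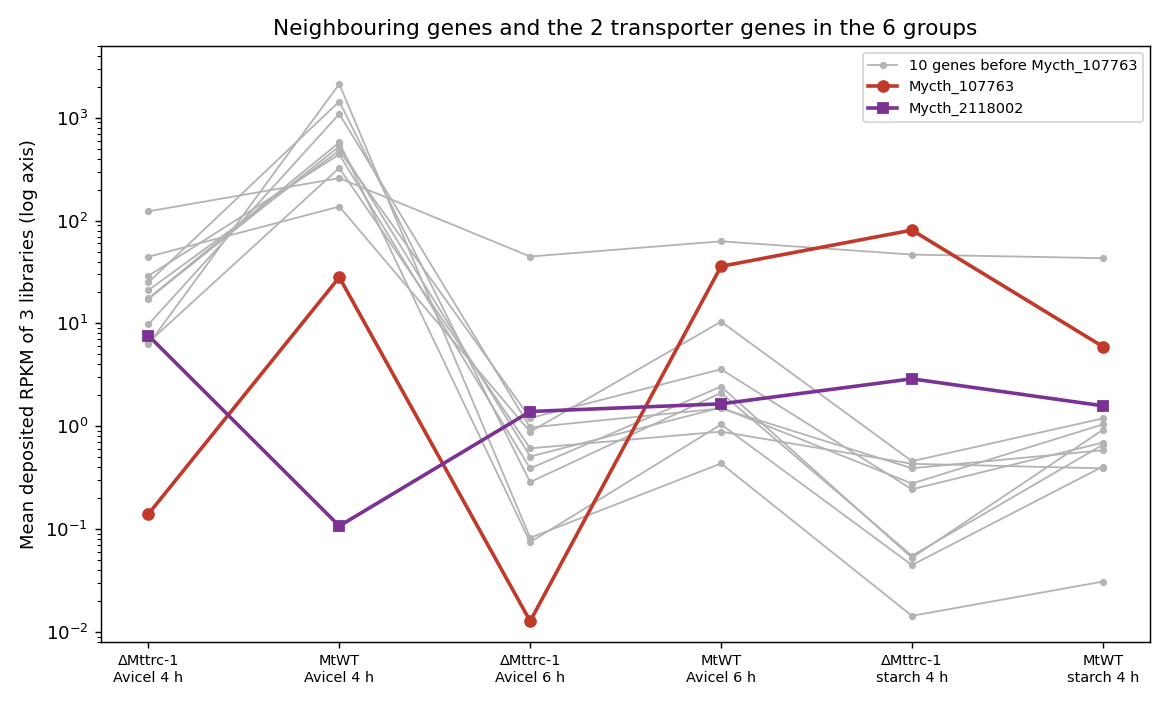
Mean deposited RPKM of 3 libraries (log axis) in the 6 groups for the 10 genes before Mycth_107763 (gray) and for Mycth_107763 and Mycth_2118002, with lines joining the values of 1 gene. The run peaked in MtWT at 4 h on Avicel, where Mycth_2118002 was lowest at 0.107 RPKM, while Mycth_107763 was highest in ΔMttrc-1 on starch at 80.8 RPKM.

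The gene between the 2 transporter genes, Mycth_2062976, described as a hypothetical protein, was at the edge of detection. It had 1, 3 and 1 counts in ΔMttrc-1 and 9, 8 and 10 in MtWT at 4 h on Avicel, and 1, 1 and 2 counts in ΔMttrc-1 and 19, 35 and 17 in MtWT at 6 h. It was called lower at both times, with log2 differences of -2.24 and -4.59 (edgeR adjusted p = 0.0244 and 2.16e-06), and had 0.04 on starch. Beyond Mycth_2118002, 9 of the next 10 genes were tested and none was called at either Avicel time, where 13.3% (4 h) and 21.5% (6 h) of all genes were, a count too small to set against those shares, with medians of -0.35 at 4 h and 0.58 at 6 h. Of these 9, Mycth_2060248 was the only one called on starch, at 1.25 (edgeR adjusted p = 0.00329).

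Around Mycth_2059428 the calls were mixed. Of the 10 genes before it 2 were lower and 2 higher at 4 h on Avicel, and of the 10 after it 1 was lower and 0 higher, where 7.42% of all genes were lower and 5.83% higher. At 6 h on Avicel 2 were lower and 1 higher before it, and 3 lower and 0 higher after it. Of all genes, 12.9% were lower and 8.55% higher there. On starch 1 was lower and 1 higher before it, and 0 lower and 2 higher after it. Of all genes, 3.86% were lower and 4.12% higher there. The gene directly before Mycth_2059428 is another MFS gene, Mycth_2109027, at low counts. Mycth_2109027 had 14, 11 and 21 counts in ΔMttrc-1 and 2, 2 and 6 in MtWT at 4 h on Avicel, and 37, 40 and 35 in ΔMttrc-1 and 2, 3 and 1 in MtWT at 6 h. On starch it had 10, 7 and 11 counts in ΔMttrc-1, against 47, 24 and 26 in MtWT. Its log2 differences were 2.30 ± 0.54, 3.55 ± 0.54 and -1.64 ± 0.39, with edgeR adjusted p of 0.000671, 1.73e-06 and 0.000927. At 4 h both genes of the pair were thus higher on Avicel and lower on starch in ΔMttrc-1, while at 6 h on Avicel Mycth_2109027 was higher in ΔMttrc-1 and Mycth_2059428 was -0.79. The levels of Mycth_2109027 did not exceed 1.93 CPM in any library, and its calls were lost in limma on log2(RPKM + 1).

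The genes whose levels followed each transporter gene most closely were ranked by the Pearson correlation of log2 CPM over the 18 libraries, among 7111 genes that reached 10 CPM in some group. Genes chosen this way share the profile of their transporter gene because of the choice. Their shared directions are therefore a description and no separate result. For Mycth_107763 the first was Mycth_112362, described as a member of the regulator of G protein signaling superfamily, at r = 0.979. It had 26.4 CPM in ΔMttrc-1 and 289 CPM in MtWT at 4 h on Avicel, 13.0 and 201 CPM in ΔMttrc-1 and MtWT at 6 h, and 428 and 82.5 CPM in ΔMttrc-1 and MtWT on starch. In log2 differences that is -3.45, -3.95 and 2.38, so the direction in each condition was that of Mycth_107763 and the size on Avicel was smaller. The next were Mycth_2295071, Mycth_2310246, the cytochrome P450 gene Mycth_112051 and Mycth_2305568, at r from 0.966 to 0.949. All 5 were lower on Avicel at both times and higher on starch in fitted value, and Mycth_2295071 did so with differences of only -0.56, -0.77 and 0.38.

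For Mycth_2118002 the closest were Mycth_2132560 (r = 0.963), Mycth_59106, Mycth_2107104, Mycth_2308103 and Mycth_2310341. Mycth_2107104, described as a zinc-binding alcohol dehydrogenase, had 352 CPM in ΔMttrc-1 and 11 CPM in MtWT at 4 h on Avicel, 119 and 84.3 CPM at 6 h, and 183 and 112 CPM on starch, in ΔMttrc-1 and MtWT each time. For Mycth_2059428 they were Mycth_2303034 (r = 0.984), Mycth_2308135, Mycth_2297133, the aldo/keto reductase gene Mycth_113236 and the chloroperoxidase gene Mycth_2067982. Mycth_2308135 had 532 CPM in ΔMttrc-1 and 85.9 CPM in MtWT at 4 h on Avicel, and 63.1 and 190 CPM in ΔMttrc-1 and MtWT on starch. With Spearman's rho in place of Pearson's r, 2 of the 5 genes stayed for Mycth_107763, 0 for Mycth_2118002 and 3 for Mycth_2059428, so the lists rest in part on the few groups at the extremes. Between the transporter genes r was 0.64 for Mycth_2118002 and Mycth_2059428 and -0.52 for Mycth_107763 and Mycth_2059428.

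**Figure D5:**
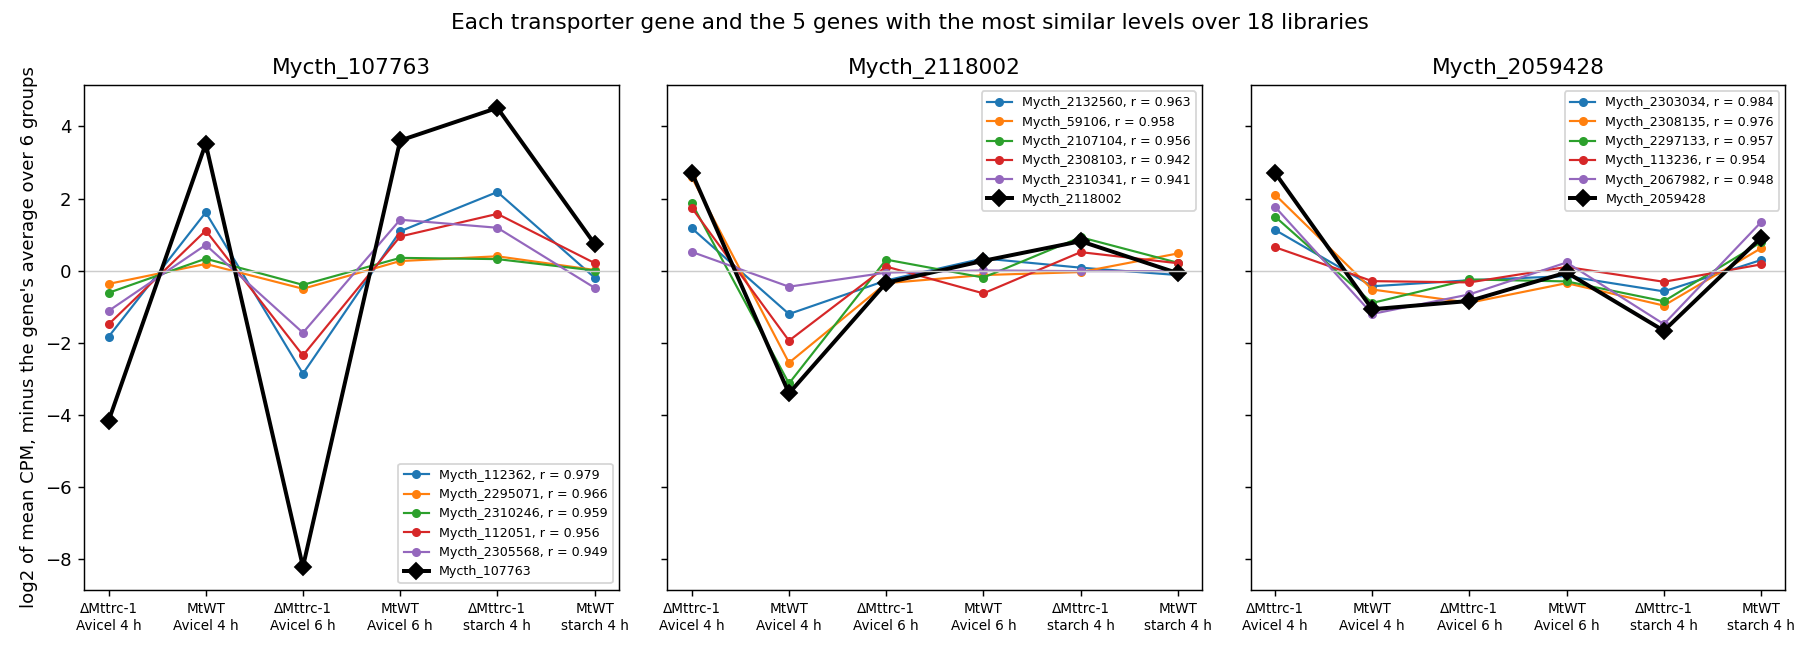
log2 of the mean CPM in the 6 groups, minus the average of the gene over the groups, for each transporter gene (black) and the 5 genes most similar to it over 18 libraries. The 5 genes near Mycth_107763 follow its zigzag between strains at a smaller size, and those near Mycth_2118002 share its peak in ΔMttrc-1 and its trough in MtWT at 4 h on Avicel. The genes were picked for this likeness.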

How the data were processed

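RNA-seq libraries of 18 samples in 6 groups of 3 were used, with groups and replicate numbers read from titles. In MtWT samples titled replicate 3, the description repeats the name of replicate 2, so these 2 numbers rest on the titles. The authors aligned reads with TopHat2 2.0.8b and deposited raw counts per gene from HTSeq 0.5.4p2, versions as in the submitters' processing notes, while the study's methods name others. They also deposited RPKM values. Reads were mapped to transcripts predicted for the genome of the wild-type strain, and the counts are of uniquely mapped reads. The sources used here give no build number and no strand setting, so overlapping and antisense genes cannot be told apart.

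The deposited counts went into edgeR 4.0.16 under R 4.3.3 (TMM, filterByExpr, glmQLFit with robust dispersion, glmQLFTest) on all 6 groups together, without a replicate term. Of 9109 genes 8573 were tested, and the 536 left out held 0.00403% of counts. Comparisons share libraries, since each is a contrast of the same 6 group means. All groups share the estimate of spread, though replicates differed unequally. The chi-square per degree of freedom between 2 replicates was 2.17 to 2.27 in ΔMttrc-1 on starch. In MtWT at 4 h on Avicel it was 35 and 42 for replicate 3 against replicates 1 and 2. SEs and adjusted p at 4 h on Avicel may therefore be too small. SEs are the log2 difference divided by the square root of F. They understate the uncertainty where a group holds few counts, as for Mycth_107763 in ΔMttrc-1 on Avicel and Mycth_2118002 in MtWT at 4 h on Avicel. Alternatives used DESeq2 1.42.0, limma 3.58.1 with 1 added to RPKM, other scalings, filters and priors, and each library left out. The script was tested on simulated data. Gene order came from RefSeq ASM22609v1, in which 9086 genes matched. MFS, sugar transporter, carrier and control lists came from the study's descriptions, of which 1666 were at hand. Genes named besides the 3 transporters were those in their unbroken neighboring run, the 5 most correlated with each, and the 2 most decreased and 2 most increased called genes of at least 10 CPM in the MFS and sugar transporter lists per deletion comparison. Genes named outside this rule (Mycth_2062976, Mycth_2060248, Mycth_2109027 and the reference genes) were chosen for their place or role. The 3 transporters and the lists were chosen with earlier results of these data known.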

Additional observations from a re-analysis of the deposited data

Results flagged for a closer look

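The deletion effect, ΔMttrc-1 over MtWT on the log2 scale, took opposite signs between conditions in the 3 transporter genes. The libraries of the strains did not overlap in TMM-scaled CPM in these comparisons. For Mycth_2118002 at 6 h on Avicel they did overlap on deposited RPKM, at 1.32 to 1.49 in ΔMttrc-1 and 1.37 to 1.93 in MtWT. These sign changes were not tested because the genes were chosen for them. Between Avicel and starch at 4 h the effect differed by -11.28 for Mycth_107763 (-13.86 without ΔMttrc-1 replicate 1 at 4 h on Avicel) and by 6.36 for Mycth_2059428. Between 6 h and 4 h on Avicel it differed by -6.70 for Mycth_2118002 and by -4.58 for Mycth_2059428. All of these share the libraries at 4 h on Avicel.

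For other named genes the difference between 2 deletion effects was tested in edgeR over all genes and passed, with adjusted p up to 0.0159. Only genes that passed are listed. Many were named for a large deletion effect in 1 of the compared conditions, so the tests reuse the libraries that chose them. Of all 8573 genes, 19.3% were called between Avicel and starch at 4 h. Between 6 h and 4 h on Avicel, 905 were called higher and 1017 lower. Between Avicel and starch at 4 h, the effect differed among the MFS genes by -4.11 for Mycth_109499, -2.45 for Mycth_102977, -1.93 for Mycth_112498 and 3.93 for Mycth_2109027. Among sugar transporter genes it differed by -3.41 for Mycth_104673, -1.09 for Mycth_114107, 3.86 for Mycth_108924 and -4.20 for Mycth_108044. In the run before Mycth_107763 it differed by -6.18 for Mycth_50128, -7.80 for Mycth_115957, -3.08 for Mycth_2303702, -3.04 for Mycth_2138881, -5.85 for Mycth_2303709 and -1.23 for Mycth_50920. The starch part of the value for Mycth_115957 rests on 1 count in ΔMttrc-1 and 2 in MtWT, summed over 3 libraries each. The other genes of the run named here, except Mycth_50920, were also at low counts on starch, such as Mycth_50128 with 19 and 33.

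Between 6 h and 4 h on Avicel, the effect differed among the MFS genes by 1.48 for Mycth_2030361, 1.11 for Mycth_2051606 and 1.75 for Mycth_102977. Among sugar transporter genes it differed by -3.66 for Mycth_108924, -1.13 for Mycth_2076976 and 1.17 for Mycth_108044. In the run it differed by 5.86 for Mycth_50128, 5.82 for Mycth_115957, -2.26 for Mycth_2303701, 2.60 for Mycth_2303702, 3.03 for Mycth_2138881, 4.80 for Mycth_2303709 and 2.67 for Mycth_48716. At 6 h Mycth_115957 held only 6 counts in ΔMttrc-1 and 26 in MtWT, summed over 3 libraries each.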

How the results depend on the processing

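Among deletion effects of the 3 transporter genes that met the thresholds of a call in the main fit, none reversed under any alternative run. The effects of Mycth_2118002 at 6 h on Avicel and on starch and of Mycth_2059428 at 6 h did not meet them. By its rule this check could not count those as reversed. The called effects were also so large that a reversal was hardly possible. Over all 9 deletion effects, 101 of 117 values moved by less than the replicate spread. Many of these values come from leaving out 1 library, which can hardly move a value by more than that spread except at few counts. The number therefore says little about how firm the effects are. In limma on log2(RPKM + 1), which draws low values together, Mycth_107763 had -4.69 at 4 h and -5.19 at 6 h on Avicel, Mycth_2118002 had 2.96 and -0.15, and Mycth_2059428 had 3.5 and -0.38, with -2.30 on starch. With library totals at 6 h on Avicel, Mycth_2118002 had -0.25 and Mycth_2059428 -0.43. An added count of 2 gave -8.72 for Mycth_107763 at 6 h and 5.63 for Mycth_2118002 at 4 h, and DESeq2 gave -11.75 for Mycth_107763 at 6 h. Leaving out 1 library gave Mycth_107763 -10.09 to -6.99, -12.87 to -10.81 and 3.66 to 3.85 at 4 h and 6 h on Avicel and on starch. In the same order it gave Mycth_2118002 6.03 to 6.14, -0.73 to -0.47 and 0.72 to 1.01, and Mycth_2059428 3.69 to 3.87, -0.87 to -0.74 and -2.66 to -2.51. Higher MFS genes at 4 h on Avicel (5) numbered 9 by adjusted p alone, 1 in limma and 2 against a fold change of 2, and 4 to 7 with 1 library left out. At 6 h (5) they numbered 13, 8 and 1 in these settings, 9 with library totals and 3 to 6 with 1 library left out. On starch (3) they numbered 9 by adjusted p alone and 3 with any library left out. Lower MFS genes at 4 h (4) numbered 9, 1 and 1, and 3 to 4 with 1 library left out. At 6 h (3) they numbered 5 by adjusted p alone, 1 in limma and 2 to 3 with 1 library left out, and on starch (2) 1 in limma, 0 against a fold change of 2 and 2 with any library left out. Same-numbered replicates did not deviate together (r from -0.03 to 0.07), and with the replicate number as a block the lower MFS genes at 4 h numbered 3. Counts of Mycth_107763 in ΔMttrc-1 on Avicel are at the floor, so its size there is limited by depth.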
